A study of Homo sapiens with 10 samples.

Results

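The transcripts of the oxidative phosphorylation subunits were followed in HCT116, a human colorectal carcinoma cell line, with and without an edit of CD276, the gene of the immune surface protein B7-H3. The members were chosen by gene symbol: protein-coding genes of the NDUFA, NDUFB, NDUFC, NDUFS and NDUFV series (complex I), SDHA to SDHD (complex II), UQCR (complex III), COX5 to COX8 with their isoforms (complex IV), ATP5 without its assembly and inhibitory factors (complex V), and the protein-coding genes of mitochondrial DNA. The rule found 99 of 58050 genes, 86 of them encoded in the nucleus and 13 in mitochondrial DNA. It reads symbols only and so leaves out COX4I1, COX4I2, NDUFAB1, CYC1 and CYCS, which are given as a list of their own. NDUFA4, named for complex I, is counted with complex IV, where its protein belongs. The 5 HCT116-WT libraries came from cells with the wild-type genotype, and the sources used here do not state whether these cells had received the scrambled guide RNA that served as a control for editing. The 5 HCT116-CD276KO libraries came from 1 clone, sorted from cells into which Cas9 protein and a guide RNA against CD276 had been electroporated. Both groups were grown in McCoy's 5A medium with fetal calf serum. With 1 clone, an effect of the edit and a property of that clone cannot be told apart. The replicates are described as biological replicates of cultured cells, so a p-value measures the spread between cultures and not between independent clones.

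Oxidative phosphorylation takes place at the inner mitochondrial membrane. Complexes I and II pass electrons from NADH and succinate to ubiquinone, complex III hands them to cytochrome c and complex IV to oxygen, and complex V, the ATP synthase, uses the resulting proton gradient to make ATP. Complexes I, III, IV and V are built from nuclear subunits and from a few core subunits that mitochondria transcribe and translate themselves, while complex II is wholly nuclear. Mitochondrial genes are transcribed as long polycistronic RNAs that are cut into single mRNAs, mostly at the transfer RNAs that lie between them.

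The values are TPM, the abundance of a transcript relative to all transcripts of its library, corrected for its length, and they sum to the same total in every library. The depth of each library cannot be recovered from TPM, and the study's methods give only an average over libraries with its coefficient of variation. CD276 was at 45.3 ± 6.17 TPM in HCT116-WT and 5.46 ± 1.21 TPM in HCT116-CD276KO (SD, n = 5 each), a log2 fold change of -2.85 ± 0.13 (SE, limma adjusted p = 1.39e-07), and the groups did not overlap. Epithelial markers were abundant, with KRT8 at 2082 TPM in HCT116-WT, although VIL1 was at 0.022 TPM. The 5 epithelial markers that could be tested were all called lower in HCT116-CD276KO, where 4.09% of all genes tested were called lower. CDH1 was at 42.7 ± 4.92 TPM in HCT116-WT against 20.4 ± 5.73 TPM in HCT116-CD276KO. Over the 5 markers the log2 fold change ran from -1.07 to -0.29, with a median of -0.39. The part of this difference in the results was not tested. Of 11 markers of leukocytes, fibroblasts and endothelium, CD68 was at 13.2 TPM in HCT116-WT and 9.58 TPM in HCT116-CD276KO and COL1A1 at 7.31 and 5.57 TPM, neither called, and the other 9, PTPRC and CDH5 among them, stayed at or below 0.22 TPM in both group means. The libraries HCT116-CD276KO 2 and 3, stood apart in how expression related to transcript length. The Spearman correlation, over genes, of a library's deviation from the mean with transcript length was -0.52 and -0.49 in these libraries and lay between -0.09 and 0.43 in the other 8. The same correlation with GC content was 0.61 in HCT116-WT 3 and 0.48 in HCT116-CD276KO 2 and lay between -0.34 and 0.02 in the other 8. The summary values and the members with the smallest p-values are also given without these 2 libraries, after the sums.

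Nearly all nuclear subunits were expressed. Of the 86 nuclear members, 78 had a mean of at least 1 TPM and could be tested, and 61 of them had a mean of at least 100 TPM. The members that failed the filter were tissue-restricted isoforms and gene copies. COX6A2 and COX7A1, the heart and skeletal muscle isoforms of their subunits, were listed at 0 in every library. COX7B2 was above 0 only in HCT116-WT 1, at 0.14 TPM, and COX8C did not pass 0.28 TPM in any library. ATP5MGL and UQCRHL, copies of ATP5MG and UQCRH, stayed at or below 0.12 and 0.29 TPM. NDUFA4L2, a paralog of the complex IV subunit NDUFA4, was at 0.38 TPM in HCT116-WT and 0.41 TPM in HCT116-CD276KO. COX6B2, the testis isoform of COX6B1, was at 1.1, 0.94, 1.33, 1.46 and 1.26 TPM in HCT116-WT 1 to 5 and at 0.81, 0.54, 0.63, 0.71 and 0.91 TPM in HCT116-CD276KO 1 to 5. These groups did not overlap, but the mean over all libraries was below the filter and no test was run.

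Levels differed widely between subunits of the same complex, compared on the TPM scale, which is per unit of length. In complex I the lowest mean over the 10 libraries was 20.8 TPM for NDUFV3, an accessory subunit of the NADH-binding module, and the highest was 530 TPM for NDUFB9, an accessory subunit of the membrane arm, a ratio of 25.5. Complex II was the most even, from 140.4 TPM for SDHA, the flavoprotein subunit, to 198 TPM for SDHC, a membrane anchor, a ratio of 1.41. Complex III ran from 44.6 TPM for UQCRFS1, the Rieske iron-sulfur protein, to 618 TPM for UQCRH, the hinge protein that contacts cytochrome c. Complex IV ran from 119 TPM for COX7A2L to 926 TPM for COX7C, a small structural subunit. In complex V, ATP5F1B, the catalytic beta subunit, was the most abundant nuclear member at 1154 TPM, while ATP5F1E, the epsilon subunit of the same F1 head, was the lowest of its complex at 49.5 TPM.

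Within the F1 head the transcripts of the subunits present in several copies were above that of the single central gamma subunit ATP5F1C. The ratio of ATP5F1A, the alpha subunit, to ATP5F1C was 2.66 ± 0.168 in HCT116-WT and 2.55 ± 0.159 in HCT116-CD276KO. For ATP5F1B the ratio was 4.2 ± 0.223 and 3.98 ± 0.364, and for ATP5F1E it was 0.166 ± 0.0324 and 0.183 ± 0.0183 (SD, n = 5 each). The level of ATP5F1E is uncertain because ATP5F1EP2, a near copy of it, was listed at 26.6 to 43.5 TPM and the 2 share reads. The 3 genes ATP5MC1, ATP5MC2 and ATP5MC3, which encode the same mature c-ring protein, together reached 1002 ± 67 TPM in HCT116-WT and 1091 ± 113 TPM in HCT116-CD276KO. ATP5MC3 gave 49.1% ± 2.64 of this sum in HCT116-WT and 49.9% ± 1.54 in HCT116-CD276KO.

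**Figure D1:**
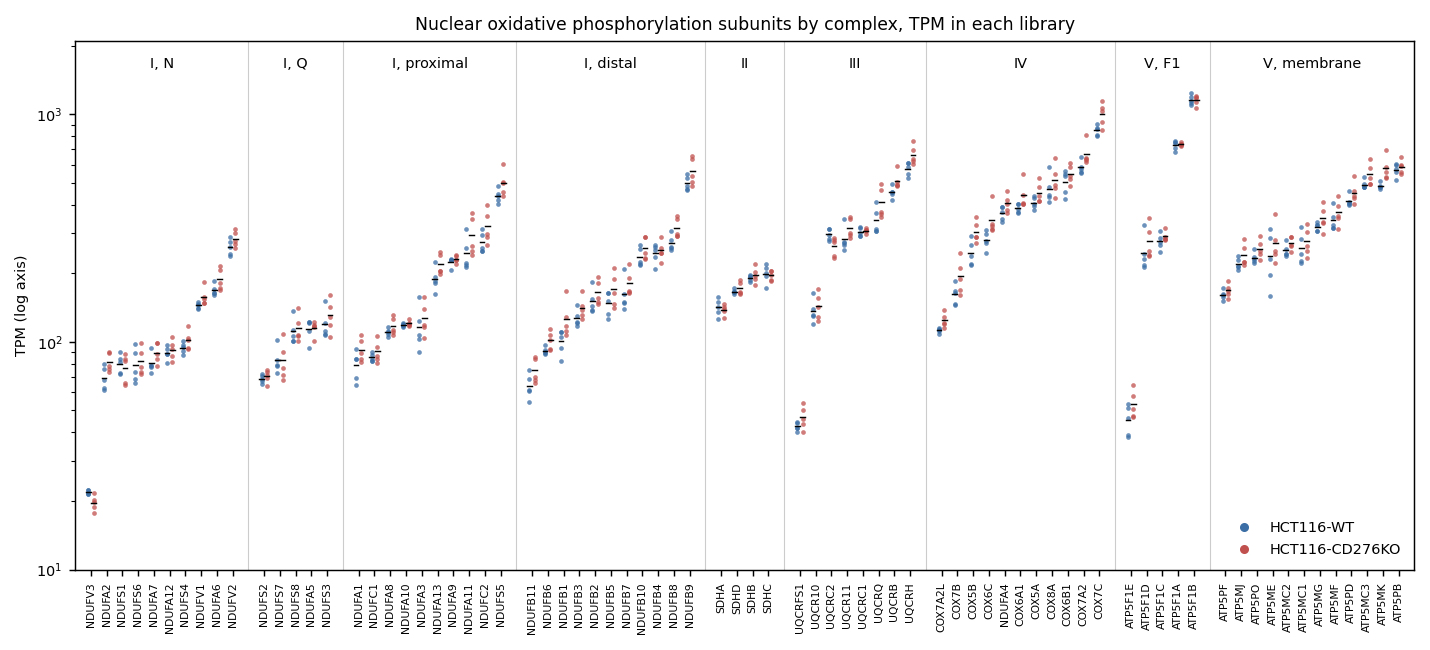
TPM (log axis) of 76 tested nuclear members in each library, grouped by complex and, for complexes I and V, by module, with the 2 readthrough genes left out. Each point is 1 library (blue HCT116-WT, red HCT116-CD276KO), each bar is the group mean of 5, and the groups overlap for all but ATP5MK, COX6C and COX7A2L, in which every red point lies above every blue one.

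In the comparison of HCT116-CD276KO with HCT116-WT, no nuclear member passed the test, and most leaned the same way by a small amount. Of 78 nuclear members, 0 had an adjusted p under 0.05 (limma on log2(TPM + 1), Benjamini-Hochberg over 13581 genes), where 4.87% of all genes tested were called. At an unadjusted p under 0.05 there were 16, 14 of them higher in HCT116-CD276KO, against 21.9% of all genes. The log2 fold change was above 0 for 69 of 78 nuclear members (88.5%), with a median of 0.13, whereas it was above 0 for 31.9% of all genes tested, with a median of -0.09. The range ran from -0.18 for UQCRC2 to 0.31 for NDUFB1. The 95% intervals lay within 0.5 of 0 for 72 of the 78, and over all 91 tested members none reached 1, so a 2-fold change of any member on this scale lies outside its interval. Libraries without overlap between the groups were found for 3 of the 78 tested nuclear members, all higher in HCT116-CD276KO. Of all genes tested, 7.61% had no overlap in either direction and 1.42% in that direction.

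Of the members tested, ATP5MK had the smallest p among the nuclear ones. It encodes a small membrane subunit of the ATP synthase that takes part in dimer formation. Its values were 482, 479, 469, 507 and 476 TPM in HCT116-WT 1 to 5 and 529, 586, 695, 558 and 525 TPM in HCT116-CD276KO 1 to 5. Every HCT116-CD276KO library was above every HCT116-WT library. The log2 fold change was 0.25 ± 0.07 (SE, 95% interval 0.09 to 0.42, limma adjusted p = 0.0798), and the exact two-sided permutation test gave p = 0.00794, the smallest value that 5 against 5 allows. The gene lies on chromosome 10, 103389041 to 103396492 on the minus strand (GRCh38, GENCODE 44). Its level in HCT116-CD276KO 3 was the highest of all libraries.

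**Figure D2:**
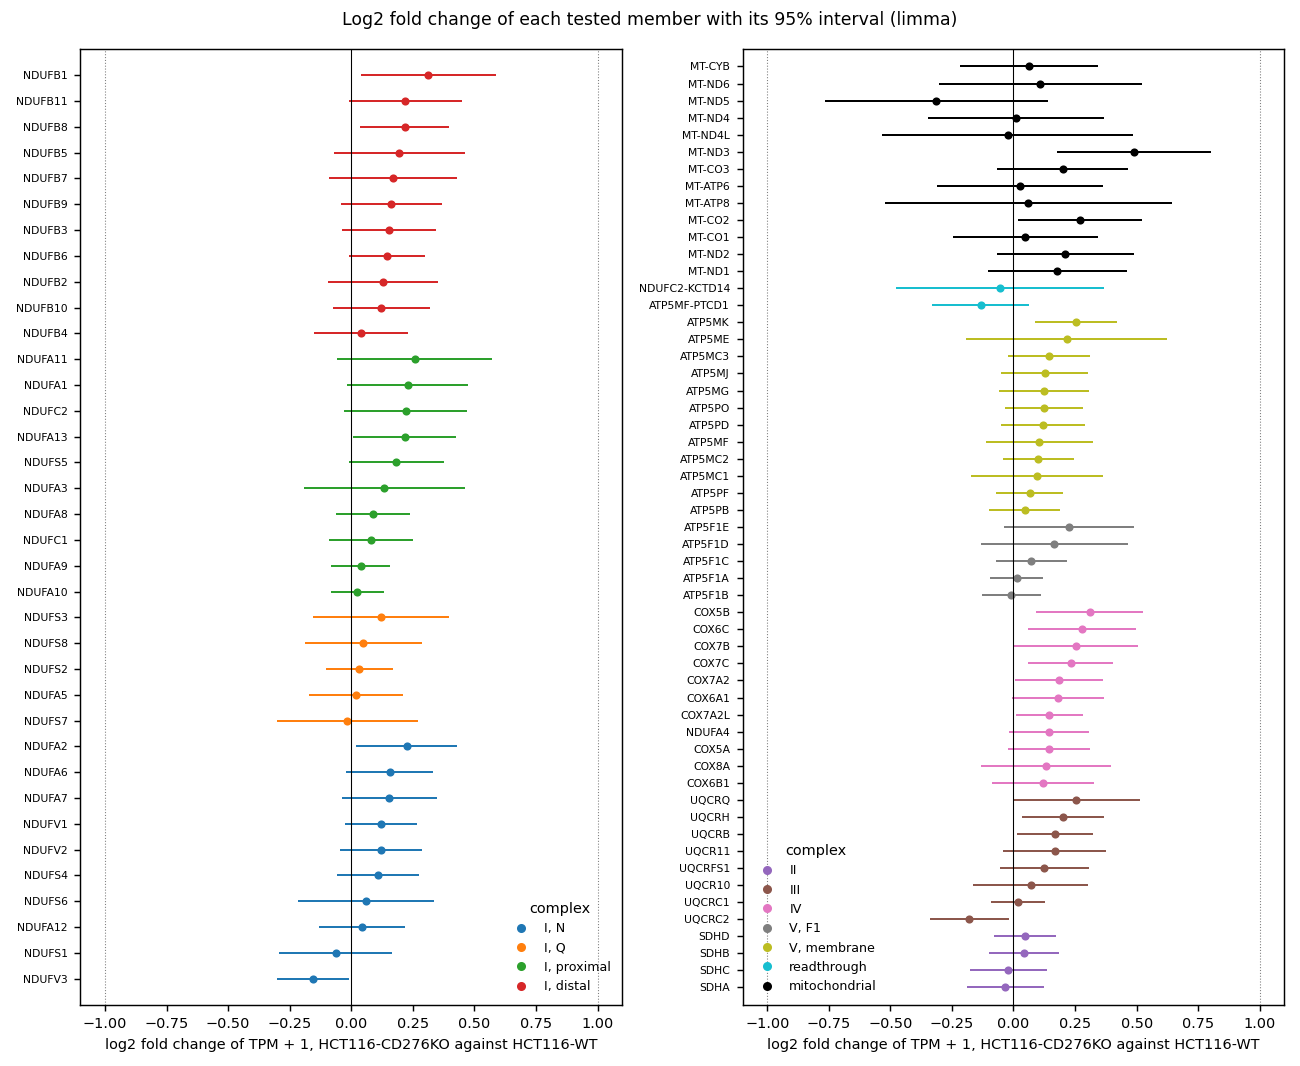
Log2 fold change of TPM + 1 (HCT116-CD276KO against HCT116-WT) of each of the 91 tested members, as a point with its 95% interval from limma, coloured by complex, with dotted lines at -1 and 1. The points of complex IV all lie to the right of 0, complex II sits around 0, and the mitochondrial genes in black have the widest intervals.

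The complex I members were higher by a small margin in 33 of 36 cases, with a median log2 fold change of 0.13. An unadjusted p under 0.05 was found for 5 of the 36, against 21.9% of all genes tested. The lean was shared by the membrane arm. All 10 members of its proximal part, with a median of 0.16, and all 11 of its distal part, also with a median of 0.16, were above 0. In the NADH-binding N module 8 of 10 were above 0, with a median of 0.11, and in the Q module, which joins the N module to the membrane, 4 of 5, with a median of 0.03. The highest fold change was that of NDUFB1, a small accessory subunit of the distal arm. It was at 82.8, 106, 111, 110.1 and 93.9 TPM in HCT116-WT 1 to 5 and at 117, 129, 167, 112 and 107 TPM in HCT116-CD276KO 1 to 5. The groups overlapped, and HCT116-CD276KO 3 stood highest. This gave a log2 fold change of 0.31 ± 0.12 (SE, limma adjusted p = 0.17).

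NDUFB8, an accessory subunit of the same arm, was at 262, 257, 308, 279.8 and 253 TPM in HCT116-WT and at 290.4, 348, 357, 299 and 290.5 TPM in HCT116-CD276KO. The highest HCT116-WT library, number 3, lay within the range of HCT116-CD276KO. Its log2 fold change was 0.22 ± 0.08 (SE, limma adjusted p = 0.146). The lowest value of the complex was that of NDUFV3, the least abundant subunit. It was at 21.5, 22.3, 22.4, 21.6 and 21.7 TPM in HCT116-WT and at 19.7, 18.8, 17.7, 21.6 and 20.3 TPM in HCT116-CD276KO. Its log2 fold change was -0.15 ± 0.07 (SE, limma adjusted p = 0.198), with overlap only through HCT116-CD276KO 4. Once library trends along transcript length and GC content had been taken out, it was 0.04. NDUFB9, the most abundant member of the complex, was at 498 ± 35.5 TPM in HCT116-WT and 561 ± 77.5 TPM in HCT116-CD276KO (SD), a log2 fold change of 0.16 ± 0.09 (SE, limma adjusted p = 0.309). The steadiest of all nuclear members between cultures was NDUFA10, with a within-group SD of 0.03 on the log2 scale, and its fold change was 0.02, 95% interval -0.08 to 0.13.

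Complex II, which is also the succinate dehydrogenase of the citric acid cycle, showed the smallest differences. Its 4 subunits summed to 699 ± 32.1 TPM in HCT116-WT and 704 ± 29.5 TPM in HCT116-CD276KO (SD), and their log2 fold changes ran from -0.03 for SDHA to 0.05 for SDHD. SDHC, at -0.02, shares this range. All 4 intervals lay between -0.18 and 0.18. The sign for SDHA and SDHC changed under other scalings.

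In complex III, 7 of 8 members were above 0, with a median of 0.15. UQCRH was at 545, 585, 609, 612 and 523 TPM in HCT116-WT and at 602, 694, 759.95, 635 and 619.7 TPM in HCT116-CD276KO. The groups overlapped through HCT116-CD276KO 1. For this gene the log2 fold change was 0.20 ± 0.07 (SE, limma adjusted p = 0.145), and the highest of the complex was that of UQCRQ, a small structural subunit, at 0.26 ± 0.12 (SE, limma adjusted p = 0.223). UQCRC2, core protein 2, had the lowest fold change of all nuclear members, -0.18 ± 0.07 (SE, limma adjusted p = 0.174). It was at 314, 313, 278, 284 and 296 TPM in HCT116-WT and at 287, 238, 234, 280.04 and 274 TPM in HCT116-CD276KO, with HCT116-CD276KO 2 and 3 the lowest. Its partner UQCRC1, core protein 1, was at 304 ± 12.9 TPM in HCT116-WT and 308 ± 7.34 TPM in HCT116-CD276KO (SD).

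Complex IV had the highest median, 0.18, and all 11 tested nuclear members were above 0, from 0.12 for COX6B1 to 0.31 for COX5B. It held 6 of the 16 unadjusted p-values under 0.05, where 21.9% of all genes tested had such a value. COX5B, a zinc-binding subunit on the matrix side, was at 219, 238, 291, 266 and 218 TPM in HCT116-WT and at 272, 325, 353, 287 and 288 TPM in HCT116-CD276KO. HCT116-WT 3 was above 3 of the HCT116-CD276KO libraries, and the other 4 HCT116-WT libraries lay below all of them. The log2 fold change was 0.31 ± 0.10 (SE, 95% interval 0.10 to 0.52, limma adjusted p = 0.0986). Without HCT116-WT 3, the library that overlapped, the gene passed the test, with a limma adjusted p of 0.0439. That fit called 659 of 13560 genes, and leaving out any other single library gave no call for COX5B. Over all alternatives its adjusted p ran from 0.0121 to 0.365.

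COX7C was at 805, 857, 872, 906 and 809 TPM in HCT116-WT and at 922, 1064, 1142, 1029 and 854 TPM in HCT116-CD276KO. Only HCT116-CD276KO 5 lay within the HCT116-WT range. Its log2 fold change was 0.23 ± 0.08 (SE, limma adjusted p = 0.117), and without HCT116-CD276KO 5 it was 0.29, with a limma adjusted p of 0.041. That fit called 718 of 13593 genes, and leaving out any other single library gave no call for COX7C. Its adjusted p ran from 0.016 to 0.408 over all alternatives. COX6C, another small structural subunit, was at 245, 278, 299, 309 and 271 TPM in HCT116-WT and at 311, 330.4, 435, 314 and 322 TPM in HCT116-CD276KO. The groups did not overlap, by a margin of less than 2 TPM, and the log2 fold change was 0.28 ± 0.10 (SE, limma adjusted p = 0.131).

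Of the complex IV subunits with paired isoforms, 1 form of each was expressed. COX6A1, COX6B1, COX7B and COX8A were at 161 TPM or more in both group means, against at most 1.22 TPM for COX6A2, COX6B2, COX7B2 and COX8C. The COX7A position is filled by COX7A2, and COX7A2L encodes a related protein that takes part in joining complexes III and IV. COX7A2 was 5.18 ± 0.284 times COX7A2L in HCT116-WT and 5.33 ± 0.363 times in HCT116-CD276KO (SD). COX7A2L was at 113, 115, 109, 114 and 112 TPM in HCT116-WT and at 119.7, 129, 139, 121 and 115 TPM in HCT116-CD276KO. The groups did not overlap, though HCT116-CD276KO 5 exceeded HCT116-WT 2 by less than 1 TPM, and the log2 fold change was 0.15 ± 0.06 (SE, limma adjusted p = 0.184). COX6A1 shares sequence with a processed copy, COX6A1P2, listed at 132 to 361 TPM, so its value, 386 ± 16.4 TPM in HCT116-WT and 440.2 ± 61.3 TPM in HCT116-CD276KO, is uncertain.

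In complex V, 16 of 17 members were above 0, with a median of 0.12. The 12 members of the membrane part and stalks were all above 0, with a median of 0.12, and 4 of the 5 F1 subunits were, with a median of 0.07. The catalytic subunits were nearly level. ATP5F1B was at 1158 ± 57 TPM in HCT116-WT and 1151 ± 55 TPM in HCT116-CD276KO (SD), a log2 fold change of -0.01, 95% interval -0.12 to 0.11, whose sign changed under other scalings. ATP5F1A was at 732 ± 34.7 TPM and 738 ± 11.1 TPM. ATP5ME, the short e subunit, varied most among these genes. It was at 159, 231, 314, 286 and 198 TPM in HCT116-WT and at 221, 279.7, 366, 250.1 and 243 TPM in HCT116-CD276KO. The groups overlapped over most of their range, and the log2 fold change was 0.22, with an interval from -0.19 to 0.62.

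The 2 readthrough genes in the set, ATP5MF-PTCD1 and NDUFC2-KCTD14, share exons with ATP5MF and NDUFC2, and their reads cannot be assigned with certainty. They were at 10.3 and 11.4 TPM in HCT116-WT and 9.3 and 10.4 TPM in HCT116-CD276KO. The subunits that the symbol rule misses gave 0 calls among the 4 that could be tested, where 4.87% of all genes tested were called. COX4I1, the regulatory subunit of complex IV, was at 954 ± 91.8 TPM in HCT116-WT and 1085 ± 131 TPM in HCT116-CD276KO (SD), a log2 fold change of 0.18 (limma adjusted p = 0.254), and COX4I2, its isoform in lung and low oxygen, was listed at 0 in every HCT116-WT library.

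Taken as a sum, the 13 mitochondrial genes were more abundant than the nuclear ones, although MT-ND6 had a mean of only 45.4 TPM over the libraries. The 13 genes summed to 57704 ± 11909 TPM in HCT116-WT and 61809 ± 5902 TPM in HCT116-CD276KO (SD), which was 5.77% and 6.18% of all TPM. The median mitochondrial subunit of complex IV was 20.1 ± 4.78 times the median nuclear subunit in HCT116-WT and 18.6 ± 3.11 times in HCT116-CD276KO. For complex I the ratio was 17.6 ± 4.52 and 18.1 ± 3.06, for complex V it was 26.9 ± 8.02 and 25.5 ± 7.13, and for complex III, whose only mitochondrial subunit is cytochrome b, it was 6.05 ± 1.35 and 6.11 ± 0.822 (SD, n = 5 each). In each complex the group means differed by less than these SDs.

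**Figure D3:**
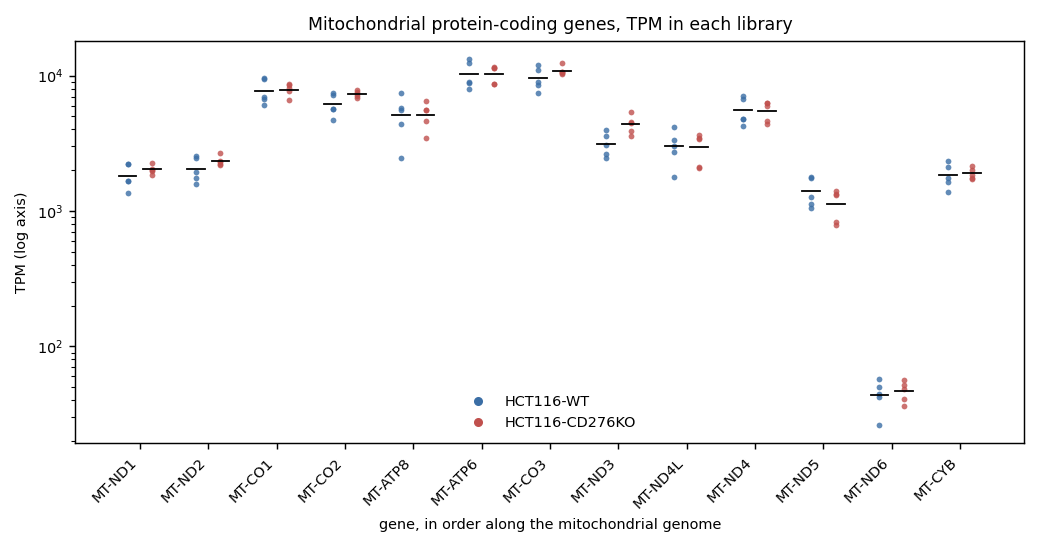
TPM (log axis) of the 13 mitochondrial protein-coding genes in their order along the mitochondrial genome. Each point is 1 library (blue HCT116-WT, red HCT116-CD276KO) and each bar the mean of 5. The groups overlap for every gene, MT-ND6 lies far below the rest, and MT-ND3 shows the clearest offset.

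Among the mitochondrial genes levels ran over more than 2 orders of magnitude, through MT-ND6 alone. The others lay between 1401 and 10283 TPM in HCT116-WT. MT-ATP6, a proton channel subunit of complex V, was at 10283 ± 2402 TPM and MT-CO3, a core subunit of complex IV, at 9586 ± 1919 TPM in HCT116-WT. MT-CO1, the catalytic subunit of complex IV, followed with 7725 ± 1645 TPM, MT-CO2, which takes electrons from cytochrome c, with 6134 ± 1156 TPM, MT-ND4 with 5525 ± 1305 TPM and MT-ATP8 with 5127 ± 1854 TPM. Each of these neighbours differed by less than the larger of their SDs. MT-ND3 was at 3134 ± 626 TPM and MT-ND4L at 3020.5 ± 886 TPM, and MT-ND2, MT-CYB, MT-ND1 and MT-ND5 lay between 2057 and 1401 TPM. MT-ND6, the only 1 of the 13 on the other strand, was at 44.1 ± 11.6 TPM in HCT116-WT and 46.7 ± 8.13 TPM in HCT116-CD276KO. The libraries were made from polyadenylated RNA, and the part of this selection in the levels was not tested.

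The 2 pairs of mitochondrial genes that overlap by more than 1 base on the same strand are shown here because short reads from the shared bases fit both genes. The sequences are from the GENCODE 44 transcripts on GRCh38, plus strand, 5′ to 3′, and capitals mark the bases that belong to both genes. The first, chrM:8512-8587, holds the 46 shared bases of MT-ATP8 and MT-ATP6, which are read in different frames. The second, chrM:10745-10781, holds the 7 shared bases of MT-ND4L and MT-ND4, where the ATG that opens MT-ND4 lies inside MT-ND4L.
MT-ATP8 and MT-ATP6: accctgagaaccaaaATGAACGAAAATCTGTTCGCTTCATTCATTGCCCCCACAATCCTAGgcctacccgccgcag
MT-ND4L and MT-ND4: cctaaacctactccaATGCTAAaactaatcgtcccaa

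The members of each pair are thought to stay on 1 mRNA, so their levels were compared within libraries. MT-ATP8 was 0.503 ± 0.168 times MT-ATP6 in HCT116-WT and 0.493 ± 0.0653 times in HCT116-CD276KO, and MT-ND4L was 0.55 ± 0.128 times MT-ND4 and 0.528 ± 0.0554 times (SD). The ratio of MT-ATP8 to MT-ATP6 ran from 0.31 to 0.643 within HCT116-WT alone. MT-ATP8 is the shortest member, with 207 bases, and had the widest spread of the 13, a within-group SD of 0.496 on the log2 scale. The nuclear genome holds copies of mitochondrial genes that can share their reads. The largest listed here, MTATP6P1, was at 1036 to 1743 TPM.

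No mitochondrial gene passed the test between the groups. The count called was 0 of 13, where 4.87% of all genes tested were called. At an unadjusted p under 0.05 there were 2, both higher in HCT116-CD276KO, against 21.9% of all genes. The log2 fold change was above 0 for 11 of 13, against 31.9% of all genes, with a median of 0.06. Without HCT116-WT 1, the library with the lowest mitochondrial sum, the median was -0.04, and MT-ATP6, MT-ATP8, MT-CO1, MT-CYB, MT-ND4 and MT-ND6 were below 0. MT-ND3, a small core subunit of complex I, came closest and had the smallest p of all 91 tested members. It was at 2466, 3946, 3049, 3578 and 2629 TPM in HCT116-WT 1 to 5 and at 3893, 4429, 5410.4, 4543 and 3600.2 TPM in HCT116-CD276KO 1 to 5. HCT116-WT 2 was above 2 of the HCT116-CD276KO libraries, so the groups overlapped. The log2 fold change was 0.49 ± 0.14 (SE, 95% interval 0.18 to 0.80, limma adjusted p = 0.0734), with p = 0.0317 in the exact two-sided permutation test. Without HCT116-WT 2, the library that overlapped, the gene passed the test, with a limma adjusted p of 0.0482. That fit called 370 of 13580 genes, and leaving out any other single library gave no call for MT-ND3. Over all alternatives its log2 fold change stayed between 0.37 and 0.59 and its adjusted p between 0.0251 and 0.287.

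MT-CO2 was at 4662, 7469, 5698, 5700.4 and 7141 TPM in HCT116-WT and at 7091, 7279, 7533, 7787 and 6805 TPM in HCT116-CD276KO. HCT116-WT 2 and 5 lay within the HCT116-CD276KO range and the other 3 below it, and the log2 fold change was 0.27 ± 0.11 (SE, limma adjusted p = 0.192). MT-ND5, a core subunit of complex I, had the lowest fold change, -0.31 ± 0.20 (SE, limma adjusted p = 0.372). It was at 1055, 1755, 1278, 1123 and 1796 TPM in HCT116-WT and at 1405, 786, 834, 1313 and 1333 TPM in HCT116-CD276KO. The low values were those of HCT116-CD276KO 2 and 3, and without both the fold change was -0.02. The ratio of MT-ND3 to MT-ND5 was 1.46 to 3.19 in HCT116-WT, 2.70 to 3.46 in HCT116-CD276KO 1, 4 and 5, and 5.64 and 6.48 in HCT116-CD276KO 2 and 3. MT-ND3 has 346 bases and MT-ND5 1812.

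The intervals of the other mitochondrial genes all included 0. MT-ND2 was at 0.21 ± 0.13, MT-CO3 at 0.20 ± 0.12 and MT-ND1 at 0.18 ± 0.13 (log2, SE). MT-ND6, MT-CYB, MT-ATP8, MT-CO1, MT-ATP6 and MT-ND4 lay between 0.11 and 0.01, and MT-ND4L at -0.02. The intervals of 7 of the 13 lay within 0.5 of 0, against 72 of 78 nuclear members. The median within-group SD was 0.258 on the log2 scale for mitochondrial members, 0.133 for nuclear members and 0.172 for all genes tested.

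Summed over the 86 nuclear members, the level was 19532 ± 835 TPM in HCT116-WT and 21413 ± 1823 TPM in HCT116-CD276KO (SD), or 109.6% of HCT116-WT. Without HCT116-CD276KO 2 and 3 it was 20134 ± 449 TPM in HCT116-CD276KO (SD, n = 3), or 103% of HCT116-WT, and the log2 ratio of the sums went from 0.13 to 0.04. By library it was 19032, 19026, 20478, 20394 and 18730 TPM in HCT116-WT 1 to 5 and 19959, 22781, 23884, 20644 and 19799 TPM in HCT116-CD276KO 1 to 5. HCT116-CD276KO 2 and 3 were the highest, and the other 3 lay within or close to the HCT116-WT range. The mitochondrial sum was 42395, 71439, 52946, 53746 and 67996 TPM in HCT116-WT and 64899, 53894, 57878, 68771 and 63606 TPM in HCT116-CD276KO. It varied 1.69-fold within HCT116-WT, and HCT116-WT 1 was the lowest. The sums of nuclear and mitochondrial members did not order the libraries alike, since HCT116-CD276KO 2 and 3 had the lowest mitochondrial sums of their group. Mitochondrial TPM per nuclear TPM was 2.97 ± 0.682 in HCT116-WT and 2.92 ± 0.479 in HCT116-CD276KO. In bulk RNA, fewer cells that express a gene and less RNA per cell cannot be told apart.

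**Figure D4:**
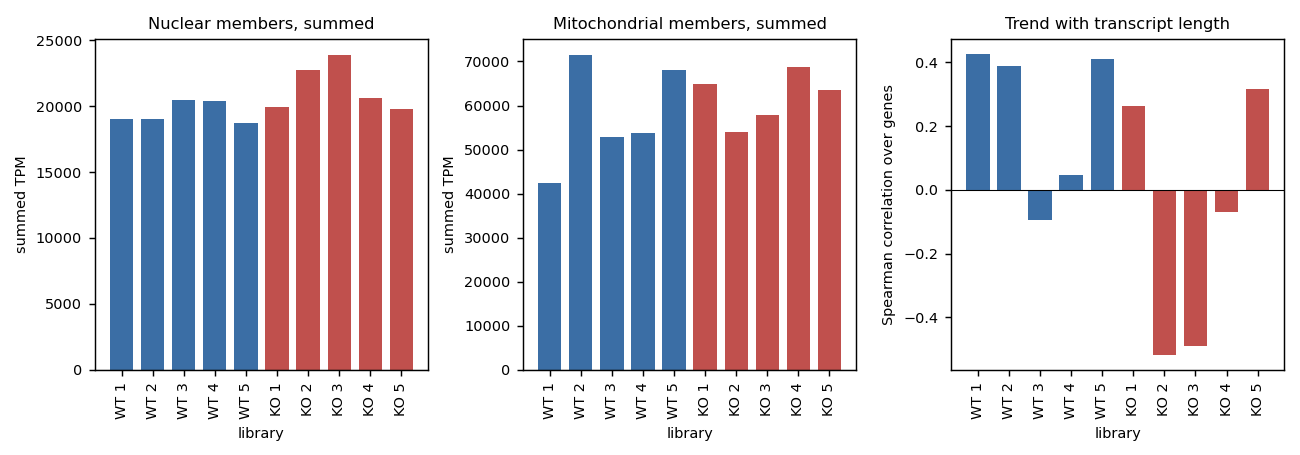
Summed TPM of the 86 nuclear members (left), summed TPM of the 13 mitochondrial members (middle) and the Spearman correlation, over genes, of a library's log2 deviation with transcript length (right), 1 bar per library, blue HCT116-WT and red HCT116-CD276KO. KO 2 and KO 3 have the highest nuclear sums, 22781 and 23884 TPM, and the most negative correlations.

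The nuclear offset was largest in the 2 libraries with the most negative length trend. HCT116-CD276KO 3 held the highest value of 43 of the 78 tested nuclear members and HCT116-CD276KO 2 that of 22 more. For 60 of the 78, both exceeded the other 3 libraries of their group. Without both, the median log2 fold change of the nuclear members was 0.04, with 57 of 79 tested members above 0 (72.2%), against a median of -0.03 and 41.5% above 0 for all genes. The mitochondrial median was then 0.23, with 12 of 13 above 0, and no member of either kind was called. Among single members, the log2 fold change without both libraries was 0.37 for MT-ND3, 0.20 for COX5B, 0.17 for COX6C, 0.16 for NDUFB1, 0.15 for ATP5MK, 0.14 for COX7C, 0.11 for UQCRH, 0.11 for NDUFB8, 0.08 for COX7A2L, -0.08 for UQCRC2 and -0.09 for NDUFV3. Without HCT116-WT 3, which stood apart in its GC trend, the nuclear median was 0.14, with 68 members above 0, and the mitochondrial median was 0.11.

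Nuclear subunits are mostly short transcripts, and fold changes in these data moved with length. The median canonical transcript was 757 bases long for the 86 nuclear members, tested or not, and 2913 bases for all genes tested. In the shortest quintile of all genes, up to 1341 bases, the median log2 fold change was 0.04 and 59.0% of genes were above 0, and in the longest quintile, from 5379 bases, the median was -0.20 and 12.7% were above 0. The shortest quintile held 53 of the nuclear members, 50 of them above 0, with a median of 0.13. The part of length in the result was not tested beyond these values. With those trends along length and GC content taken out, the median over all genes was 0.01, that of the nuclear members was 0.12, and 73 of 78 were above 0. HCT116-CD276KO 2 and 3 still stood highest after this step, with median deviations of the nuclear members from their mean over libraries of 0.14 and 0.21. The same median was -0.04, 0.02 and -0.02 in HCT116-CD276KO 1, 4 and 5 and between -0.11 and 0.01 in HCT116-WT. Of all genes, 4.45% were called higher in the fit with these trends taken out, and 1299 of 13472 were called in either direction. In that fit 4 of 78 nuclear members were called, all higher. They were NDUFB8 (0.19 ± 0.05, adjusted p = 0.026), NDUFS1, the largest iron-sulfur subunit of the N module (0.18 ± 0.05, adjusted p = 0.0327), COX5B (0.29 ± 0.07, adjusted p = 0.0336) and ATP5MK (0.22 ± 0.06, adjusted p = 0.0338), with values as log2 ± SE from limma. NDUFS1 was at -0.06 in the fit without this step. Its canonical transcript, 11660 bases, falls in the longest quintile, and whether these cells express that length was not tested. Over all alternatives the adjusted p ran from 0.0251 to 0.517 for NDUFB8, from 0.0327 to 0.991 for NDUFS1 and from 0.0128 to 0.172 for ATP5MK. With libraries weighted by their quality in limma, 6 nuclear members were called, all higher: COX7C, COX5B, COX6C, NDUFB8, UQCRH and ATP5MK. Of all genes, that fit called 3.88% higher and 18.2% in either direction.

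Other genes of the pathway and of short, abundant transcripts were compared as lists. The cytosolic ribosomal proteins, also short with a median of 859 bases, had 80 of 84 tested members above 0 and a median log2 fold change of 0.14. In this list 2 genes were called, against 4.87% of all genes tested. They were RPS27, higher at 0.29 ± 0.05 (SE, limma adjusted p = 0.0095), and RPS4Y1, which lies on the Y chromosome, lower. RPS4Y1 was at 108 ± 7.06 TPM in HCT116-WT and 0.078 ± 0.0723 TPM in HCT116-CD276KO (SD, limma adjusted p = 1.82e-13). The 79 mitochondrial ribosomal proteins, which translate the mitochondrial mRNAs, had a median of 0.01, with 43 above 0 and 0 called. An unadjusted p under 0.05 was found for 5 of the 79, against 21.9% of all genes tested. Of 57 assembly factors of the complexes, 2 were called, both lower, where 4.09% of all genes tested were called lower. These were COX18, which inserts a domain of COX2 into the membrane, at 15.3 ± 0.887 TPM in HCT116-WT and 12.3 ± 0.852 TPM in HCT116-CD276KO (SD, limma adjusted p = 0.0368), and BCS1L, which places the Rieske protein in complex III, at 43 ± 1.48 TPM and 35.8 ± 3.05 TPM (limma adjusted p = 0.0472). The groups did not overlap for either gene, but COX18 lost its call in 13 and BCS1L in 17 of 21 alternatives. The median of the list was 0.003, and 0 to 8 of its genes were called over the alternatives.

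Of all genes tested, 4.87% were called, and the median log2 fold change was -0.09. Genes of mitochondrial transcription, processing and translation gave 0 calls among 36, with a median of -0.06. Citric acid cycle enzymes gave 0 among 14, with a median of -0.10. With length and GC trends taken out these medians were 0.02 and -0.01, so the first turned its direction. Among 9 tested regulators of nuclear mitochondrial genes, 0 were called and 1 was above 0, against 4.87% and 31.9% of all genes. Their median was -0.20. With length and GC trends taken out 4 of 9 were above 0, with a median of -0.03 and 0 called, and with array weights 4 were called, against 18.2% of all genes. NRF1, a transcription factor named nuclear respiratory factor 1, was at 19.4 ± 1.02 TPM in HCT116-WT and 18.5 ± 1.96 TPM in HCT116-CD276KO, and GABPA, an ETS-family factor, at 22.8 ± 1.94 TPM and 19.6 ± 3.92 TPM (SD). The coactivator PPARGC1A was listed at 0 in every library.

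Promoters of nuclear subunits are known for binding sites of NRF1, of ETS-family factors such as GABPA, and of YY1. Windows of 300 bases, from 250 before to 50 after the transcription start, were available from RefSeq for 64 of the 78 tested members. On either strand, the NRF1 core GCGCATGC was in 20.3% of the members' windows, against 3.27% of all 27305 windows and 5.63% of those of genes tested. The ETS core CCGGAAG was in 29.7%, against 10.7% and 20.3%, and the YY1 core AAGATGGC in 17.2%, against 3.03% and 5.75%. Also counted were the motif named CRE, TGACGTCA, in 7.81% against 1.98% and 3.42%, and the GC box GGGCGGG. The GC box was less frequent in the members' windows, at 29.7% against 32.9% and 55.9%. In the windows of mitochondrial ribosomal proteins the shares of the ETS, YY1 and NRF1 cores were 41.4%, 28.6% and 8.57%, and in those of cytosolic ribosomal proteins 33.8%, 11.8% and 4.41%. No test was run on these shares. None of the 3 cores was in 31 of the 64 windows, and 2 windows held all 3. Members with the NRF1 core had a median log2 fold change of 0.07 (n = 13) and those without it 0.13 (n = 51). For the ETS core the medians were 0.17 (n = 19) and 0.12 (n = 45), and for the YY1 core 0.07 (n = 11) and 0.13 (n = 53).

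The windows of 3 members are printed from RefSeq on GRCh38.p14, 5′ to 3′ on the gene's own strand. ATP5MK and COX5B are shown because they had the smallest p-values of the nuclear members, and SDHB, the iron-sulfur subunit of complex II, because its window holds all 3 cores. SDHB was at 191 ± 5.9 TPM in HCT116-WT and 197 ± 16.3 TPM in HCT116-CD276KO (SD), a log2 fold change of 0.04, 95% interval -0.10 to 0.18. Capitals mark the NRF1, ETS and YY1 cores on either strand. ATP5MK is chr10:103396426-103396725 on the minus strand, COX5B is chr2:97645812-97646111 on the plus strand, and SDHB is chr1:17053983-17054282 on the minus strand. The ATP5MK window holds the ETS core 3 times, 2 of them overlapping on opposite strands, the COX5B window holds 1 NRF1 core and 2 ETS cores, and the SDHB window holds 1 of each.
ATP5MK: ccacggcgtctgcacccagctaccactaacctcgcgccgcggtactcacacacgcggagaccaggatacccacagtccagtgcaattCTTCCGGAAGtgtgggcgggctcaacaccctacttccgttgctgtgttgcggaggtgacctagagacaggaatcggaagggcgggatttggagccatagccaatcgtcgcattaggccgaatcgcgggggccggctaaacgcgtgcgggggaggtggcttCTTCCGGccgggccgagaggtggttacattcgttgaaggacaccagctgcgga
COX5B: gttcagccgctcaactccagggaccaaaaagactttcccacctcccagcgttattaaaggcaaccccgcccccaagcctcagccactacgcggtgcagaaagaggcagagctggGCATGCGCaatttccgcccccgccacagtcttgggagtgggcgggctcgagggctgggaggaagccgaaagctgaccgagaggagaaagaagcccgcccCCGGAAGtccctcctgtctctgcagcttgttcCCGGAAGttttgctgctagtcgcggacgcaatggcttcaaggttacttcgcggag
SDHB: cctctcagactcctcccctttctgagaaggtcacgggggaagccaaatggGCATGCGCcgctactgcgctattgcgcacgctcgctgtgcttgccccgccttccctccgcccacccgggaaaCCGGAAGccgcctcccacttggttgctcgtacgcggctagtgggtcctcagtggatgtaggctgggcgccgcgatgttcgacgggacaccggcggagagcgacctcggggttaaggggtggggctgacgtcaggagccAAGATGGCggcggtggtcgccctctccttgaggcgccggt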

How the data were processed

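Polyadenylated RNA of 10 cultures, 5 HCT116-WT and 5 HCT116-CD276KO, was sequenced with a strand-specific kit as single reads. Per the labels and the study's methods, the authors mapped reads with STAR 2.5.2b to hg38 (GRCh38), quantified them with RSEM 1.3.0 and featureCounts 1.5.1, and deposited TPM values with 2 decimals per gene. Which program gave the TPM is not given in the sources used here, and the counts were not analysed here, so the depth of each library is unknown and no count test was run.

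Genes whose mean reached 1 TPM were tested on log2(TPM + 1) with limma 3.58.1 in R 4.3.3 (group only, variance trend, Benjamini-Hochberg over 13581 genes, threshold 0.05), checked first on simulated data. A fold change on this scale understates that of low genes. Single values were also compared by exact permutation. Members, lists and alternatives were chosen with earlier results of these data known. The genes named are the 13 mitochondrial genes, in each complex the nuclear member with the highest level, the highest and the lowest fold change, the isoform families, members under 1 TPM and called genes of the lists. COX6C, NDUFB8, NDUFS1, NDUFA10, UQCRC1, ATP5F1A, ATP5F1C, ATP5F1E, ATP5ME, SDHB, SDHD and the least abundant member of each complex were named after their values were seen. Lengths, GC content and coordinates are of GENCODE 44 canonical transcripts on GRCh38, matched by gene, and not of the annotation the authors used. Alternatives were another pseudocount, other filters, median-of-ratios and quantile scaling, nuclear genes rescaled alone, length and GC trends removed, array weights, robust moderation, a replicate block, each library left out and, chosen after the data were seen, HCT116-CD276KO 2 and 3 left out together.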

Additional observations from a re-analysis of the deposited data

Results flagged for a closer look

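In 7 of 110 groups of 5 libraries examined for 53 genes and the 2 sums, 1 library lay far from the other 4, judged by its gap to the nearest library as a share of the group's range against Dixon's critical value of 0.71. Chance flags about 1 in 20 such groups. All 7 are high values in HCT116-CD276KO. COX7A2 was at 809 TPM in HCT116-CD276KO 3 and at 614 to 645 TPM in the others (share 0.841). COX6A1 was at 546 TPM in HCT116-CD276KO 3 and at 403 to 443 TPM in the others (share 0.72). COX6C was at 435 TPM in HCT116-CD276KO 3 and at 311 to 330.4 TPM in the others (share 0.841), and ATP5F1C at 317 TPM and at 279 to 288 TPM (share 0.776). MT-CO3 was at 12311 TPM in HCT116-CD276KO 4 and at 10354 to 10713 TPM in the others (share 0.816), and MT-ND2 at 2676 TPM in the same library and at 2192 to 2325 TPM in the others (share 0.724). BCS1L was at 41.04 TPM in HCT116-CD276KO 4 and at 33.5 to 35.5 TPM in the others (share 0.737).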

How the results depend on the processing

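CD276 was called lower in all 21 alternatives, with a log2 fold change of -3.04 to -2.74. The count of nuclear members called, 0 in the reported fit, was 1 with quantile normalization (COX5B), 4 with length and GC trends removed, 6 with array weights, and 0 to 1 when single libraries were left out. Over all genes, 638 of 13581 were called with quantile normalization, 1299 of 13472 with those trends removed and 2474 of 13581 with array weights. The mitochondrial count, also 0, was 1 with array weights, 1 with the replicate block (MT-ND3, adjusted p = 0.0359) and 0 to 1 when single libraries were left out. The labels do not say whether cultures of the same number were paired. Correlations of same-numbered deviations were 0.087, -0.181, 0.037, -0.027 and 0.119 for replicates 1 to 5. The highest with another number were 0.131, 0.123, 0.322, 0.180 and 0.115. Such values cannot show whether the cultures were handled in pairs. The block lowered the calls over all genes from 662 to 378 and left 0 nuclear members called. The nuclear median stayed between 0.04 and 0.22 and the mitochondrial median between -0.04 and 0.23. The log2 ratio of the nuclear sums, 0.13, moved to 0.238 with median-of-ratios scaling, which brought the median of all genes from -0.09 to 0.002, and to 0.0438 without HCT116-CD276KO 2 and 3. 

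Signs changed in the following members. With median-of-ratios scaling the log2 fold change was 0.0895 for ATP5F1B, 0.0739 for MT-ND4L, 0.0336 for NDUFS1, 0.0646 for SDHA and 0.0772 for SDHC. With quantile normalization it was -0.0787 for MT-ATP6, -0.0157 for MT-ATP8, -0.025 for MT-CYB, -0.0329 for MT-ND4, 0.0166 for NDUFS1, 0.0233 for SDHA and 0.0138 for SDHC. With length and GC trends removed it was 0.0406 for ATP5F1B, -0.00528 for MT-ATP6, -0.00284 for MT-ATP8, 0.0442 for NDUFV3, 0.0613 for SDHA, 0.00147 for SDHC and 0.183 for NDUFS1, the only 1 of these called in its new direction. With array weights it was -0.00434 for ATP5F1A and 0.17 for MT-ND4L. Without HCT116-CD276KO 2 and 3 together it was 0.0151 for ATP5F1B, -0.0442 for ATP5MC1, -0.0126 for COX8A, 0.271 for MT-ND4L, 0.0863 for NDUFS1, 0.000695 for SDHA, -0.0288 for SDHB and -0.0191 for SDHD. With single libraries left out the range was -0.0128 to 0.027 for ATP5F1A, -0.0263 to 0.0198 for ATP5F1B, -0.0607 to 0.125 for MT-ATP6, -0.182 to 0.219 for MT-ATP8, -0.0333 to 0.132 for MT-CO1, -0.0352 to 0.151 for MT-CYB, -0.0754 to 0.108 for MT-ND4, -0.201 to 0.109 for MT-ND4L, -0.0598 to 0.215 for MT-ND6, -0.075 to 0.00455 for SDHA and -0.0702 to 0.0161 for SDHC. The cause was not tested. With TPM alone, the depth behind low members cannot be stated.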
